A study of Mus musculus with 6 samples.

Results

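The genes described here are 10 transcripts of the growth hormone and STAT5 pathway of liver, chosen by symbol: Ghr, Jak2, Stat5a, Stat5b, Bcl6, Cish, Socs2, Igf1, Igfals and Lifr. All 10 were found among the 22068 symbols of the files, and all 10 were among the 11062 genes that were tested. RNA was polyadenylated liver RNA from C57BL/6 mice of 6 weeks of age, in 3 libraries of Mst1/2 liver-dKO mice (called dKO here) and 3 of control mice. The dKO mice had the genotype Mst1-/-, Mst2fl/fl, alb-Cre+/+, and the control mice were Mst1-/-, Mst2fl/fl, alb-Cre-/-. By these labels both groups lacked Mst1 and only the Cre transgene set them apart. Mst1 and Mst2 are kinases of the Hippo pathway, listed in the files as Stk4 and Stk3. The Cre is driven by the albumin promoter, which is active in hepatocytes and their precursors. Which cells of the liver had lost Mst2 was not tested. The question is how these transcripts differ when the albumin-driven Cre removes Mst2 in livers labelled as lacking Mst1.

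Growth hormone, released in pulses by the pituitary, binds its receptor on hepatocytes and activates the receptor-bound kinase JAK2, which phosphorylates STAT5. Phosphorylated STAT5 enters the nucleus, binds DNA at the motif TTCNNNGAA and switches on Igf1, Igfals and the feedback inhibitors Cish and Socs2. The repressor BCL6 binds a motif that overlaps that of STAT5 and is itself lowered by growth hormone in liver. In rodents the pattern of growth hormone release differs between the sexes, and many hepatic genes are sex-biased through STAT5.

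Values were read as RPKM, reads per kilobase of transcript per M reads, a unit that allows levels of different genes to be set side by side. From the spacing of low values, depth was estimated at 20.7 to 24.55 M reads for dKO and 16.9 to 24.8 M reads for control libraries. With the median length of each gene's coding transcripts, the estimated number of reads behind a value of the 10 genes ran from about 146 (Socs2) to about 6369 (Lifr). Replicates are numbered in the labels, but no label says that each was a separate animal, and the p-values speak only for the spread between these libraries, possibly a technical one. Each group is summarised as its mean ± SD (n = 3 libraries each). A log2 change is the dKO value less the control value in log2(RPKM + 1), from limma with Benjamini-Hochberg adjustment over all tested genes, and a gene was called at an adjusted p under 0.05. In dKO liver 1965 of the tested genes (17.8%) were called higher and 240 (2.17%) lower. RPKM is a share of all reads, and the median log2 change over all tested genes was 0.23, which median-ratio scaling of the libraries moved to -0.01. With that scaling 873 genes (7.89%) were called higher and 614 (5.55%) lower. On the first principal component, which held 67.3% of the variance, dKO replicate 3 lay at 49.0, apart from the other dKO libraries at 20.3 and 19.2, while the control libraries lay between -35.7 and -25.4. Stk3 measured 5.13, 4.25 and 5.32 RPKM in dKO libraries, against 6.00, 5.42 and 5.20 RPKM in control libraries, with a limma adjusted p of 0.424. Stk4 averaged 5.51 ± 0.51 RPKM in dKO and 4.95 ± 0.48 RPKM in control libraries, with a limma adjusted p of 0.487. Stk4 was thus read in every library, although both groups are labelled Mst1-/-, and the reason was not tested. Values per gene do not show whether a part of Mst1 or Mst2 was removed, so these levels do not test the genotype labels.

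The promoters of Cish and Bcl6 are shown first because they carry the letters TTCNNNGAA, the STAT5 motif given above. The motif of BCL6 was not searched for separately. RefSeq promoter windows (build GRCm38.p6, 250 bases before to 50 bases after a gene start) were found for 9 of the 10 genes, Socs2 being the exception. Matches are in capitals, all are written 5′ to 3′ on the gene's own strand, and the motif reads the same on both strands. The 3 matches of the second Bcl6 window and the 2 of the Cish window do not overlap each other.
Cish (chr9:107296409-107296708, plus strand): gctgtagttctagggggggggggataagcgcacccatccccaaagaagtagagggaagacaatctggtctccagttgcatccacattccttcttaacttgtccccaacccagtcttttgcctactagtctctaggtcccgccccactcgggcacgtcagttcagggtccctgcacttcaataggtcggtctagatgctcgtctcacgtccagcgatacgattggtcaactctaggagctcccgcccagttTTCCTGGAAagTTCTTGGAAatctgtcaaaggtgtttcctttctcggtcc
Bcl6, second start (chr16:23981234-23981533, minus strand): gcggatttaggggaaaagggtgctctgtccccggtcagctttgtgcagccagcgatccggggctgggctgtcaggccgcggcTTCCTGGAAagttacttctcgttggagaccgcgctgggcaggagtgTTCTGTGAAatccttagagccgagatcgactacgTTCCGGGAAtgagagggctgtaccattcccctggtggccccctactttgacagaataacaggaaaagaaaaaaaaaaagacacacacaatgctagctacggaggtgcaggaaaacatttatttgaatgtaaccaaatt
The other matches stood in the window of the first Bcl6 start and in those of the first and second of 3 Igfals starts, and are given with 10 bases on either side.
Bcl6, first start (chr16:23988952-23988980, minus strand): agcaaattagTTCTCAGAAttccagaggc
Igfals, first start (chr17:24877598-24877626, plus strand): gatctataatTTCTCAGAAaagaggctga
Igfals, second start (chr17:24878163-24878191, plus strand): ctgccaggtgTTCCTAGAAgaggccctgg
No match was found in the windows of Ghr, Jak2, Stat5a, Stat5b, Igf1 or Lifr, which says only that these letters are not in those 300 bases. Over all 32851 RefSeq windows, 8.3% held at least 1 match, 0.457% held at least 2 and 0.0335% held at least 3. Among the 16 windows of the 9 genes, 5 held a match. A match is a description of the sequence and was not tested as a binding site. The genes with matches did not move alike: Bcl6 was lower in dKO liver, Cish had a higher mean with overlapping groups, and the Igfals groups overlapped.

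Among the 10 genes, the receptor gene Lifr and the repressor gene Bcl6 fell in dKO liver, the receptor gene Ghr stood lower in every dKO library but missed the threshold, and no gene was called higher. The 2 genes called lower compare with 2.17% of all tested genes, and the 0 called higher with 17.8%. By limma at an unadjusted p under 0.05, 2 genes were higher (Jak2 and Cish) and 3 were lower, against 33% and 4.91% of all tested genes. The groups did not overlap for 3 genes, all lower in dKO, while 6.73% of all tested genes had every dKO library below every control library and 38.3% had every dKO library above. The median log2 change of the 10 genes was 0.05, against 0.23 over all tested genes. These are values of bulk liver, in which fewer cells of a type and less RNA per cell cannot be told apart.

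**Figure D1:**
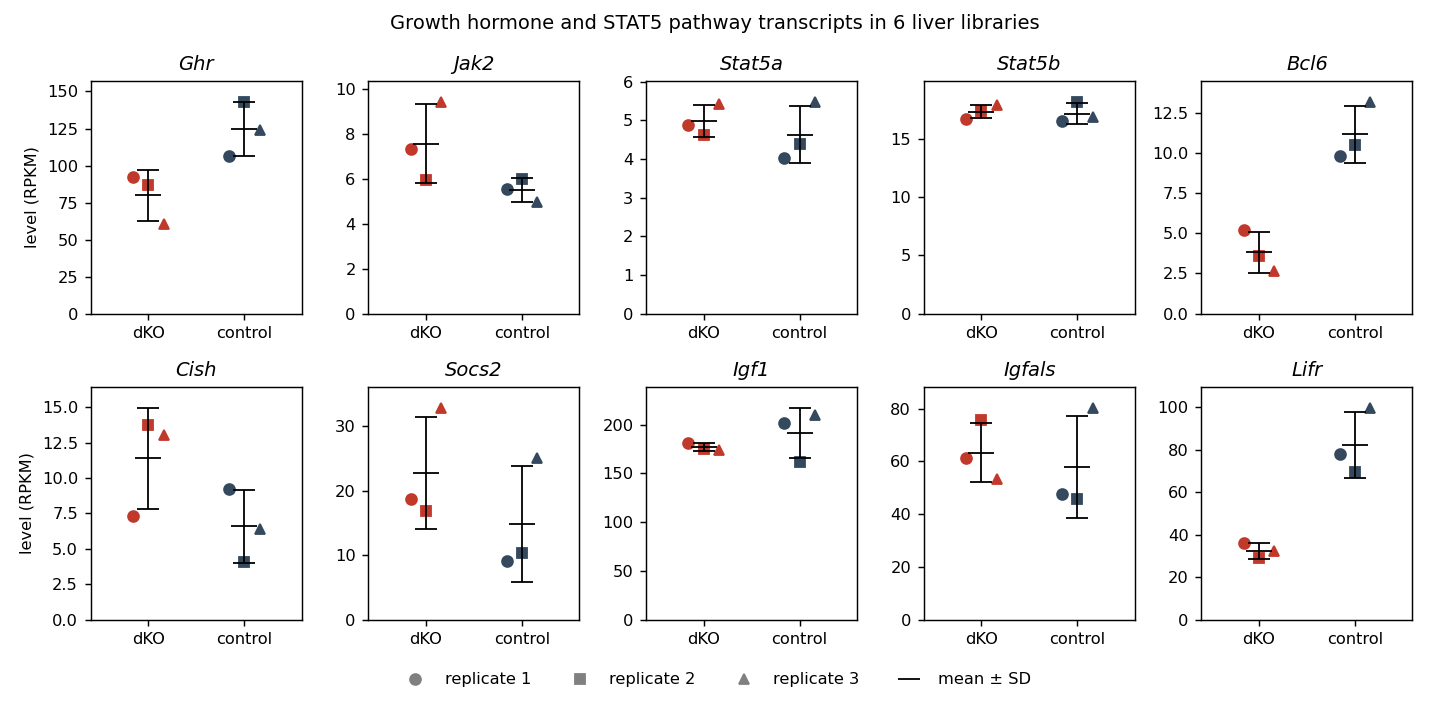
Level of each of the 10 genes in RPKM (vertical axes, each from 0) in 3 dKO and 3 control libraries, with symbols for replicates and bars for the mean ± SD. The dKO libraries lie below all control libraries for Ghr, Bcl6 and Lifr, and the groups overlap for the other 7 genes.

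Ghr encodes the growth hormone receptor, the entry point of the pathway. It measured 92.3, 86.8 and 60.4 RPKM in dKO libraries, against 106, 143 and 124 RPKM in control libraries. Every dKO library lay below every control library, and dKO replicate 3 was the lowest of all. The mean level in dKO, 79.8 ± 17.1 RPKM, was 0.642 of the control mean of 124 ± 18.3 RPKM. The log2 change of -0.65 ± 0.20 (SE, 95% confidence interval -1.10 to -0.19) had a limma adjusted p of 0.0527. It passed the threshold under 4 of 16 alternatives: median-ratio scaling (adjusted p = 0.0401), upper-quartile scaling (0.0412), scaling without the 20 most abundant genes (0.0332) and sample weights (0.0174). Over the 16 alternatives the limma adjusted p ran from 0.0174 to 0.132, and the log2 change was negative in each of them.

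Jak2 encodes the tyrosine kinase bound to the receptor. It measured 7.33, 5.93 and 9.40 RPKM in dKO libraries and 5.54, 6.00 and 4.95 RPKM in control libraries. The groups overlapped, with dKO replicate 2 just under control replicate 2. The log2 change was 0.38 ± 0.17 (SE, 95% confidence interval 0.00 to 0.76), with a limma adjusted p of 0.13. Sample weights gave a limma adjusted p of 0.0142, within a range of 0.0142 to 0.568 over the alternatives.

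Stat5a and Stat5b encode the paired transcription factors that carry the signal to the nucleus. Stat5b, the more abundant form in liver, measured 16.7, 17.4 and 17.9 RPKM in dKO libraries, against 16.5, 18.1 and 16.8 RPKM in control libraries. Its groups overlapped almost wholly, and the log2 change was 0.01 ± 0.11 (SE, 95% confidence interval -0.24 to 0.27), with a limma adjusted p of 0.932. Stat5a measured 4.87, 4.63 and 5.43 RPKM in dKO libraries, against 4.03, 4.39 and 5.47 RPKM in control libraries. The dKO values lay within the control range, and the log2 change was 0.09 ± 0.14 (SE, 95% confidence interval -0.23 to 0.42), with a limma adjusted p of 0.658. The sign of both changes depended on the scaling: with median-ratio scaling the log2 change was -0.26 for Stat5b and -0.15 for Stat5a, neither past the threshold. Of the summed RPKM of both genes, Stat5b gave 77.4%, 79.0% and 76.7% in dKO libraries and 80.3%, 80.5% and 75.5% in control libraries. The transcripts of the pair share 608 stretches of 50 bases, 14.7% of those in Stat5a and 11.1% of those in Stat5b, so some reads could have been assigned to either gene.

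Bcl6 encodes a transcriptional repressor that in mouse liver is more abundant in males and opposes STAT5 at shared sites. It measured 5.20, 3.61 and 2.67 RPKM in dKO libraries, against 9.78, 10.5 and 13.2 RPKM in control libraries. The highest dKO library was well below the lowest control library, and dKO replicate 3 was the lowest. The mean level of 3.83 ± 1.28 RPKM in dKO was 0.344 of the control mean of 11.1 ± 1.78 RPKM. The log2 change was -1.35 ± 0.20 (SE, 95% confidence interval -1.82 to -0.89), with a limma adjusted p of 0.00499. Bcl6 was called lower under each of 16 alternatives, with log2 changes of -1.64 to -1.17 and limma adjusted p of up to 0.0216.

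Cish encodes an SH2-domain inhibitor that STAT5 induces and that in turn damps the receptor. It measured 7.32, 13.8 and 13.1 RPKM in dKO libraries and 9.23, 4.10 and 6.41 RPKM in control libraries. Both of the higher dKO libraries lay above all controls, while dKO replicate 1 lay among them. The log2 change was 0.72 ± 0.30 (SE, 95% confidence interval 0.02 to 1.42), with a limma adjusted p of 0.124 and a range of 0.0552 to 0.356 over the alternatives.

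Socs2 encodes a related inhibitor, whose loss in mice gives overgrowth. It measured 18.7, 16.8 and 32.7 RPKM in dKO libraries, against 9.11, 10.3 and 25.1 RPKM in control libraries. Control replicate 3 lay above 2 of the 3 dKO libraries, and the groups overlapped through that library. The mean was 22.8 ± 8.70 RPKM in dKO and 14.8 ± 8.91 RPKM in control, a log2 change of 0.66 ± 0.41 (SE, 95% confidence interval -0.31 to 1.64) with a limma adjusted p of 0.272. Without control replicate 3 the log2 change was 1.09 and the limma adjusted p 0.0468. Without dKO replicate 3 these values were 0.38 and 0.581, and over 16 alternatives the adjusted p ran from 0.0319 to 0.992.

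Igf1 encodes the insulin-like growth factor that liver secretes under growth hormone control, and it was the most abundant of the 10 transcripts in each library. It measured 181, 175 and 174 RPKM in dKO libraries, against 201, 162 and 210 RPKM in control libraries. The dKO values lay within the control range, with a log2 change of -0.10 ± 0.16 (SE, 95% confidence interval -0.47 to 0.27) and a limma adjusted p of 0.661. With median-ratio scaling the log2 change of Igf1 was -0.39, with a limma adjusted p of 0.21. Igfals encodes the acid-labile subunit, which holds the factor in a long-lived complex in blood. It measured 61.1, 75.5 and 53.3 RPKM in dKO libraries, against 47.6, 45.7 and 80.1 RPKM in control libraries. Control replicate 3 was the highest and the other control libraries the lowest, so the dKO values lay within the control range. The log2 change of 0.16 ± 0.23 (SE, 95% confidence interval -0.37 to 0.70) had a limma adjusted p of 0.634, and it was -0.12 with median-ratio scaling. A p that misses the threshold does not show equal levels. These intervals cover the spread between libraries at the deposited scaling, and not the choice of scaling.

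Lifr encodes the receptor subunit for leukaemia inhibitory factor, which pairs with gp130 and signals through JAK kinases and STAT3. It measured 36.1, 28.9 and 32.2 RPKM in dKO libraries, against 78.1, 69.4 and 99.4 RPKM in control libraries. The dKO libraries lay close together and all far below the controls. The mean of 32.4 ± 3.62 RPKM in dKO was 0.394 of the control mean of 82.3 ± 15.4 RPKM. The log2 change was -1.31 ± 0.17 (SE, 95% confidence interval -1.69 to -0.92), with a limma adjusted p of 0.00292, the smallest among the 10 genes. Lifr was called lower under each of 16 alternatives, with log2 changes of -1.59 to -1.17 and limma adjusted p of up to 0.0165.

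**Figure D2:**
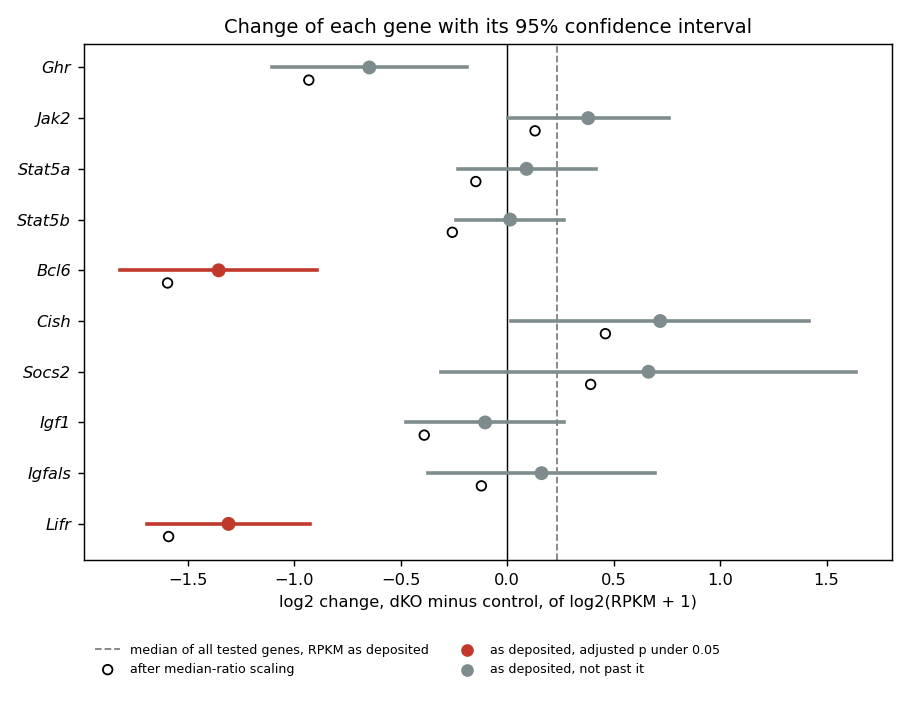
Log2 change of each gene, dKO minus control, with its 95% confidence interval (filled points and bars), the same after median-ratio scaling (open points) and the median of all tested genes (dashed line, 0.23). The intervals of Bcl6, Lifr and Ghr lie wholly below 0, and that of Ghr, from -1.10 to -0.19, belongs to an adjusted p of 0.0527.

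In order of mean level in dKO liver the genes ran from Igf1 (177 RPKM) through Ghr (79.8), Igfals (63.3), Lifr (32.4), Socs2 (22.8), Stat5b (17.3), Cish (11.4), Jak2 (7.55) and Stat5a (4.97) to Bcl6 (3.83). Neighbours in this order whose ranges over the dKO libraries overlapped were Ghr and Igfals, Lifr and Socs2, Socs2 and Stat5b, Cish and Jak2, and Stat5a and Bcl6. In control liver the order of mean levels was Igf1 (191 RPKM), Ghr (124), Lifr (82.3), Igfals (57.8), Stat5b (17.1), Socs2 (14.8), Bcl6 (11.1), Cish (6.58), Jak2 (5.49) and Stat5a (4.63). The ranges of neighbours overlapped there for Lifr and Igfals, Stat5b and Socs2, Socs2 and Bcl6, Cish and Jak2, and Jak2 and Stat5a. Lifr thus stood above Igfals and Bcl6 above Cish, Jak2 and Stat5a in control but not in dKO liver, an order of means that was not tested.

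The 5 genes whose values over the 6 libraries were most like those of Lifr, among 6584 genes that averaged 5 RPKM or more, were Igfbp2, Hs3st3b1, Enho, Rassf3 and Elovl2, with Pearson's r of 0.970 to 0.976. The 6 points are the same libraries in 2 groups, so a high r follows for many genes that differ between the groups, and r is given as a description. Igfbp2, which encodes an insulin-like growth factor binding protein, measured 40.3, 18.4 and 24.7 RPKM in dKO libraries, against 186, 111 and 165 RPKM in control libraries. Enho, which encodes the secreted peptide adropin, measured 8.61, 6.92 and 5.72 RPKM in dKO libraries, against 16.2, 13.5 and 19.3 RPKM in control libraries. Hs3st3b1 encodes a heparan sulfate sulfotransferase, and Elovl2 an enzyme that lengthens polyunsaturated fatty acids. Elovl2 was not called, with a limma adjusted p of 0.0932.

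**Figure D3:**
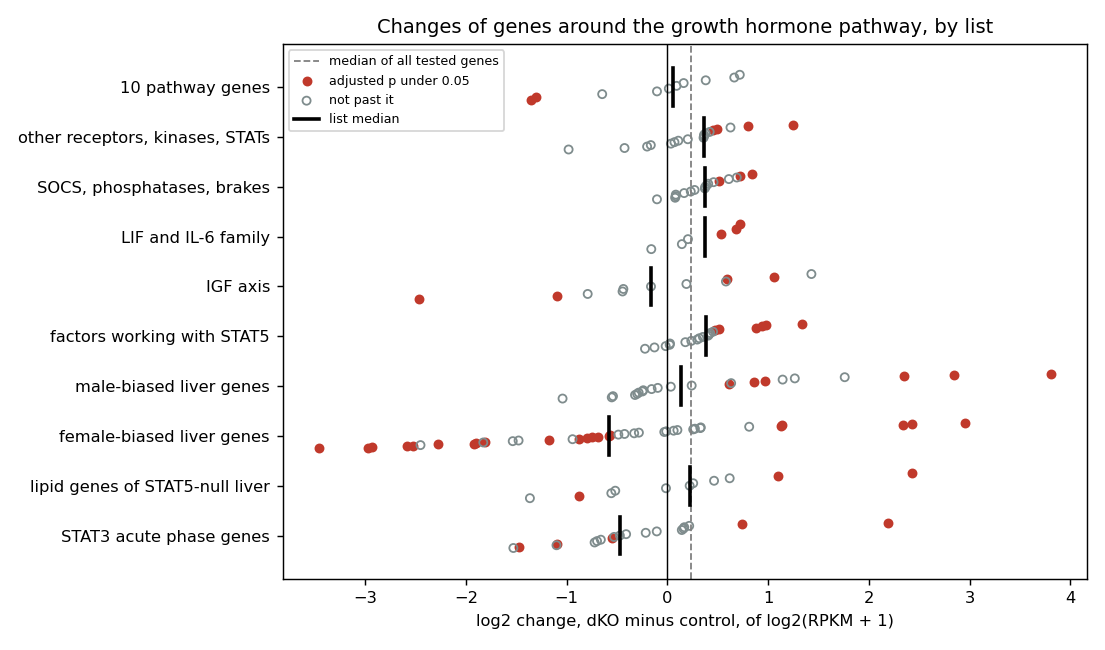
Log2 change, dKO minus control, of each tested gene in 10 lists around the pathway (filled points, adjusted p under 0.05, and open points, not past it), with the list medians (black bars) and the median of all tested genes (dashed line). The female-biased list has its median at -0.58, and 16 of its 39 tested genes were called lower.

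Around the receptor, most of the other kinases, adaptors and STATs were not called, and the number that rose was near the share among all genes. Of 23 listed receptors, kinases, adaptors and STATs, 18 were tested, 4 rose, 0 fell and 14 did not pass, with 10 higher and 1 lower at an unadjusted p under 0.05 in limma. The shares among all tested genes were 17.8% higher and 2.17% lower by adjusted p, and 33% and 4.91% at an unadjusted p under 0.05. Log2 changes of the list had a median of 0.36, against 0.23 for all tested genes. Src, a tyrosine kinase that growth hormone can also activate, rose 3.11-fold to 6.97 ± 3.40 RPKM in dKO, against 2.24 ± 0.80 RPKM in control. The docking protein gene Gab1 rose 2.01-fold, Stat6, a STAT of interleukin-4 signalling, 1.44-fold, and Sh2b1, an adaptor that binds JAK2, 1.41-fold. None of the 4 kept its call without control replicate 1 or control replicate 3, with limma adjusted p of 0.0679 to 0.0962, and the list had 2 genes that rose without dKO replicate 1 and 1 without dKO replicate 3. Src lost its call also without dKO replicate 1 (0.0536), Gab1 without dKO replicate 3 (0.0521), Stat6 when any one library other than dKO replicate 1 was left out (0.0723 to 0.109), and Sh2b1 whichever library was left out (0.0597 to 0.102). With median-ratio scaling 1 gene rose and 1 fell, beside 7.89% and 5.55% of all tested genes. When no filter on low values was used 0 rose, beside 8.48%. Prlr, the receptor for prolactin and a close relative of Ghr, measured 13.9, 16.3 and 13.8 RPKM in dKO libraries, against 20.9, 16.6 and 23.1 RPKM in control libraries (log2 change -0.43 ± 0.15, limma adjusted p = 0.073). It passed with median-ratio scaling (0.0419), upper-quartile scaling (0.0434), sample weights (0.00279) and without control replicate 2 (0.029), within a range of 0.00279 to 0.226. Stat3 averaged 28.7 ± 4.79 RPKM in dKO and 32.7 ± 7.89 RPKM in control (limma adjusted p = 0.567).

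Among the brakes of the pathway, 17 of 18 listed SOCS proteins, phosphatases and other inhibitors were tested, of which 3 rose, 0 fell and 14 did not pass (8 higher and 0 lower at an unadjusted p under 0.05 in limma). The 3 are near the share of 17.8% called higher among all tested genes. At an unadjusted p under 0.05 in limma, 33% of all tested genes were higher and 4.91% lower. Their list had a median log2 change of 0.38, against 0.23 for all tested genes. Sirpa, a membrane protein that recruits tyrosine phosphatases, rose 1.86-fold to 23.1 ± 3.73 RPKM in dKO, against 12.4 ± 1.28 RPKM in control (limma adjusted p = 0.00843). Socs3, the feedback inhibitor of gp130 receptors and STAT3, measured 3.54, 2.93 and 5.13 RPKM in dKO libraries, against 1.74, 2.19 and 1.77 RPKM in control libraries, with a limma adjusted p of 0.03. Pias3, which encodes an inhibitor of STAT3, rose 1.62-fold (limma adjusted p = 0.0344). The call of Socs3 was lost without control replicate 1 (0.0923) or 3 (0.0874), without dKO replicate 1 (0.0652) or 3 (0.0659) and with median-ratio scaling (0.054), over a range of 0.00208 to 0.107. Pias3 lost its call when any one library other than dKO replicate 2 was left out (0.0511 to 0.1). The list had 1 gene that rose when any one of those 4 libraries was left out and with median-ratio scaling, and 5 without dKO replicate 2.

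Beside the lower Lifr, its signalling partners and related receptors were called higher or not called. Of 15 listed receptors and ligands of the LIF and interleukin-6 family, 6 were tested, 3 rose and 0 fell, beside 17.8% higher and 2.17% lower among all tested genes. Its median log2 change was 0.37, against 0.23 for all tested genes. By limma at an unadjusted p under 0.05, 3 were higher and 0 lower, against 33% and 4.91% of all tested genes. Il6st, which encodes gp130, rose 1.48-fold to 47.0 ± 7.22 RPKM in dKO, against 31.8 ± 0.43 RPKM in control. Osmr, the receptor subunit for oncostatin M, measured 2.46, 2.06 and 4.21 RPKM in dKO libraries, against 1.34, 1.51 and 1.11 RPKM in control libraries. Ctf1, which encodes cardiotrophin 1, a ligand of the LIF receptor, rose 1.97-fold. Lif itself, below the level tested, held 0.496, 0.445 and 0.961 RPKM in dKO libraries, against 0.0599, 0.114 and 0.112 RPKM in control libraries; it was named after its values were seen. None of these 3 calls held with median-ratio scaling or without control replicate 1, control replicate 3 or dKO replicate 3, with limma adjusted p of 0.0629 to 0.177. Ctf1 lost its call without dKO replicate 2 (0.059) too, and Osmr without control replicate 2 (0.0539). Without dKO replicate 1 the list had 1 gene that rose, and without dKO replicate 2 or control replicate 2 it had 2.

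In the insulin-like growth factor axis downstream, binding protein genes accounted for the decreases. Of 14 listed genes 11 were tested, 2 rose, 2 fell and 7 did not pass, beside 17.8% higher and 2.17% lower among all tested genes. For the axis the median log2 change was -0.16, against 0.23 for all tested genes. In limma 2 genes of the axis were higher and 3 lower at an unadjusted p under 0.05, beside 33% and 4.91% of all tested genes. Igfbp2 fell to 0.18 of the control level, as given above. Igfbp1, a binding protein that insulin represses, averaged 91.7 ± 33.2 RPKM in dKO and 193 ± 42.1 RPKM in control (log2 change -1.10 ± 0.27, limma adjusted p = 0.0258). Its call was lost without dKO replicate 1 (0.0722) or 2 (0.0663) and without control replicate 3 (0.0823), over a range of 0.000419 to 0.0823. Igfbp3, the main carrier in blood together with the Igfals product, measured 13.0, 17.4 and 7.73 RPKM in dKO libraries, against 17.3, 25.7 and 22.9 RPKM in control libraries. Its groups overlapped and its limma adjusted p was 0.0739, or 0.0325 without dKO replicate 2, over a range of 0.00736 to 0.173. Igf2r, which clears insulin-like growth factor 2, rose 1.57-fold and Igfbp7 2.25-fold, and neither kept its call with median-ratio scaling (0.054 and 0.107) or without control replicate 1 (0.059 and 0.118) or 3 (0.06 and 0.0873). The call of Igfbp7 was lost also without dKO replicate 2 (0.051) or 3 (0.0503) and without control replicate 2 (0.105). Igf2, a fetal growth factor, held 3.29, 0.629 and 23.7 RPKM in dKO libraries, against 1.09, 0.442 and 1.93 RPKM in control libraries, with a limma adjusted p of 0.33 and its high value in dKO replicate 3.

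Of 22 listed factors that act with STAT5 in liver, 20 were tested, 6 rose and 0 fell, beside 17.8% higher and 2.17% lower among all tested genes. At an unadjusted p under 0.05 in limma, 9 were higher and 0 lower, beside 33% and 4.91% of all tested genes. The median log2 change was 0.38, against 0.23 for all tested genes. Onecut1, which encodes HNF6, a factor that growth hormone induces in rat liver, measured 10.1, 8.85 and 18.6 RPKM in dKO libraries, against 3.99, 3.27 and 5.26 RPKM in control libraries (limma adjusted p = 0.0144, or 0.0596 without control replicate 1). Foxa1, a pioneer factor gene, rose 2.21-fold, Cebpb, a stress-responsive factor gene, 2.31-fold, and Ezh1, a histone methyltransferase gene, 2.11-fold. Cebpb lost its call without control replicate 1 (0.0627), and 2 genes of the list rose without that library. With median-ratio scaling 4 of the 20 rose, beside 7.89% of all tested genes.

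Sex-biased genes were examined because growth hormone pattern and STAT5 set most of this bias in mouse liver. The labels give no sex. Xist, which is transcribed from the inactive X chromosome of female cells, held 79.7, 80.3 and 93.5 RPKM in dKO libraries, against 55.7, 65.1 and 57.2 RPKM in control libraries. Of 4 genes of the Y chromosome, Ddx3y was listed at 0 in all 6 libraries, and Eif2s3y, Kdm5d and Uty held at most 0.027 RPKM. Both groups thus had Xist well expressed and these Y chromosome genes at or near 0, the pattern of female tissue. Xist was called higher in dKO (limma adjusted p = 0.0407), a call that was lost with median-ratio scaling (0.277) and when any one library other than control replicate 2 was left out (0.0713 to 0.133).

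Of 43 listed female-biased genes, 41 were in the files and 39 were tested; 16 fell, 5 rose and 18 did not pass. The median log2 change was -0.58, against 0.23 for all tested genes, of which 2.17% were called lower and 17.8% higher. In limma 21 genes of the list were lower and 5 higher at an unadjusted p under 0.05, beside 4.91% and 33% of all tested genes. Sult2a2, a sulfotransferase gene, averaged 102 ± 30.9 RPKM in dKO and 382 ± 99.9 RPKM in control (limma adjusted p = 0.00372). Tox, named after its values were seen, encodes a nuclear factor that is more abundant in female liver and measured 1.60, 1.09 and 2.11 RPKM in dKO libraries, against 4.25, 2.87 and 3.38 RPKM in control libraries. Cux2, a female-specific repressor of male-biased genes, was not called: it held 2.57, 3.00 and 8.01 RPKM in dKO libraries, against 6.62, 1.5 and 2.41 RPKM in control libraries, with a limma adjusted p of 0.659. The 5 female-biased genes that rose, some of them named after their values were seen, were Cd36, a fatty acid transporter gene, Gas6, a ligand gene of TAM receptors, Ntrk2, a neurotrophin receptor gene, Slc16a5, a transporter gene, and Fmo2, a monooxygenase gene. Cd36 stood at 80.2, 82.6 and 75.6 RPKM in dKO libraries, against 13.4, 12.2 and 16.4 RPKM in control libraries. Gas6 rose 5.59-fold to 44.6 ± 9.69 RPKM and Ntrk2 15.7-fold to 13.4 ± 3.89 RPKM in dKO. Leaving out dKO replicate 2 or 3 gave 10 and 9 that fell, beside 1.37% and 1.16% of all genes tested in those fits. Leaving out control replicate 1 or 3 gave 5 each time, beside 0.807% and 1.04%. With median-ratio scaling 19 fell and 4 rose, beside 5.55% lower and 7.89% higher among all tested genes. Without a filter on low values 10 fell, beside 0.858%.

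Of 32 listed male-biased genes, 31 were in the files and 22 were tested; 6 rose, 0 fell and 16 did not pass (8 higher and 2 lower at an unadjusted p under 0.05 in limma). Among all tested genes 17.8% were called higher, and the median log2 change of the list was 0.14, against 0.23 for all. C9, a complement component gene, measured 240, 306 and 271 RPKM in dKO libraries, against 44.9, 61.2 and 52.3 RPKM in control libraries. Mup20 rose 22.9-fold, Selenbp2, a selenium binding protein gene, 8.27-fold, and Ces2e, a carboxylesterase gene, 1.54-fold. Reads of Sult2a2, Selenbp2, Ces2e and Mup20 can be shared with near-identical gene copies, so their values are uncertain. Other male-biased genes were not called: Cyp7b1, an oxysterol hydroxylase gene, averaged 5.19 ± 0.76 RPKM in dKO and 6.34 ± 0.80 RPKM in control (limma adjusted p = 0.244). Elovl3, a fatty acid elongase gene that is high in male liver, held at most 0.624 RPKM in any library and was not tested. The number that rose was 3 with median-ratio scaling, without dKO replicate 2 or without control replicate 1, and 1 gene fell without dKO replicate 1 or without control replicate 2. Ces2e lost its call with median-ratio scaling (0.199), without dKO replicate 1 (0.0639) or 2 (0.0503) and without control replicate 1 (0.0663).

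**Figure D4:**
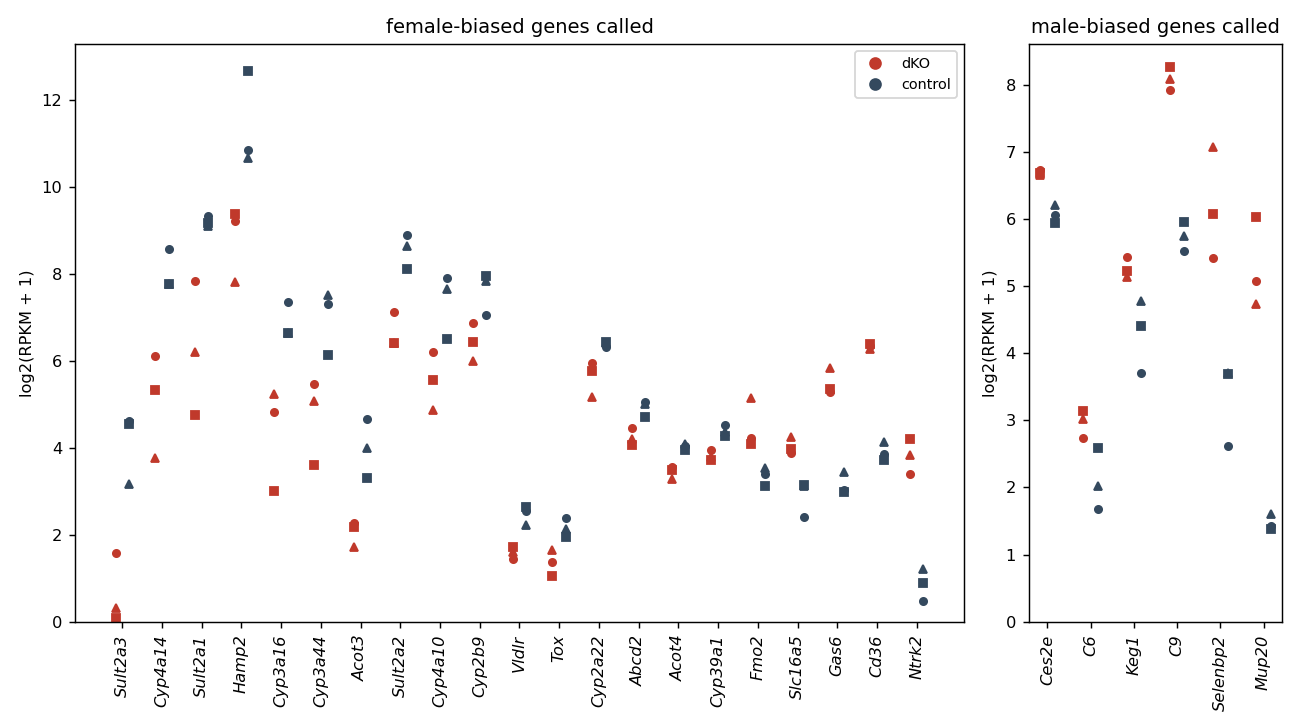
Level, as log2(RPKM + 1), of the 21 female-biased and the 6 male-biased genes that were called, with dKO libraries in red left of control libraries in dark blue, and circles, squares and triangles for replicates 1, 2 and 3. Of the female-biased genes 16 lie lower and 5 higher in dKO, and all 6 male-biased genes lie higher in dKO; genes were picked for the plot by their test.

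Of 15 listed lipid genes known to be higher in STAT5-null mouse liver, 11 were tested, 2 rose, 1 fell and 8 did not pass. These counts stand beside 17.8% higher and 2.17% lower among all tested genes, and the median log2 change of the list was 0.22, near the 0.23 of all. In limma 2 genes of the list were higher and 4 lower at an unadjusted p under 0.05, beside 33% and 4.91% of all tested genes. Cd36 rose 5.67-fold, and Angptl4, a lipase inhibitor gene, rose 2.18-fold. The call of Angptl4 was lost with median-ratio scaling (0.125), when any one dKO library was left out (0.0583 to 0.0722) and without control replicate 1 (0.0724). Vldlr, a lipoprotein receptor gene, fell to 2.01 ± 0.30 RPKM in dKO, against 4.56 ± 0.79 RPKM in control (limma adjusted p = 0.00953). Cd36 and Vldlr stand on the female-biased list too. With median-ratio scaling 1 gene rose and 3 fell, beside 7.89% and 5.55% of all tested genes.

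The STAT3 acute phase genes, which read out the branch that Lifr and gp130 feed, had calls in both directions. Of 20 listed, 19 were tested, 2 rose, 3 fell and 14 did not pass, beside 17.8% higher and 2.17% lower among all tested genes. The median log2 change of the list was -0.47, against 0.23 for all tested genes. In limma 2 genes of the list were higher and 6 lower at an unadjusted p under 0.05, beside 33% and 4.91% of all tested genes. Lcn2, which encodes lipocalin 2, rose 5.29-fold, with 65.7, 53.3 and 151 RPKM in dKO libraries against 18.5, 18.1 and 14.5 RPKM in control libraries. Hp, which encodes haptoglobin, rose 1.64-fold (limma adjusted p = 0.0493). The genes that fell were Orm2, an orosomucoid gene, Saa3, a serum amyloid gene, and Itih4, a plasma protein gene named after its values were seen. Orm2 lost its call whichever library was left out (0.0507 to 0.119), and Saa3 when any one other than control replicate 3 was (0.0634 to 0.144). Saa1 measured 38.3, 30.0 and 14.3 RPKM in dKO libraries, against 41.6, 76.3 and 23.2 RPKM in control libraries, and its groups overlapped (limma adjusted p = 0.351). The list had 0 genes that fell without dKO replicate 1, dKO replicate 3 or control replicate 1, and 1 without dKO replicate 2 or control replicate 3. It had 1 gene that rose when any one library other than control replicate 2 was left out, and Hp lost its call in each of those fits (0.0919 to 0.175) and with median-ratio scaling (0.251).

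Markers of the cells in the tissue moved with the groups in part. The 5 hepatocyte markers summed to 38861 to 45355 RPKM in dKO and 44877 to 58539 RPKM in control libraries. Of the 5, 2 (Ttr and Serpina1c) fell, beside 2.17% of all tested genes. Neither call held without dKO replicate 1, dKO replicate 3, control replicate 1 or control replicate 3 (limma adjusted p = 0.0526 to 0.128). Ttr and Serpina1c also lost their calls without a filter on low values (0.0779 and 0.0728), with a replicate block (0.0543 and 0.0528) and with quantile normalization (0.308 and 0.074). Ttr did so too with median-ratio or upper-quartile scaling (0.0579 for each) and without robust moderation (0.0546). All 4 tested cholangiocyte markers of 6 listed rose, beside 17.8% of all tested genes. The 6 summed to 324 to 957 RPKM in dKO and 21.6 to 70.4 RPKM in control libraries, most of it from Spp1. Krt19, one of the 4, lost its call with median-ratio scaling (0.0898) and when any one library other than dKO replicate 1 was left out (0.0713 to 0.141), while the other 3 were called in every fit. The 6 macrophage markers in the files summed to 152 to 224 RPKM in dKO and 91.5 to 203 RPKM in control, the 6 stellate cell markers to 161 to 267 and 159 to 179 RPKM, and the 5 endothelial markers to 68.2 to 81.7 and 63.1 to 69.7 RPKM. The 4 lymphocyte markers summed to 4.76 to 7.21 RPKM in dKO and 2.80 to 5.33 RPKM in control, and the 3 neutrophil markers to 34.6 to 74.6 and 51.4 to 106 RPKM. None of the markers in the files was at 0 in all libraries. Among macrophage, stellate, endothelial, lymphocyte and neutrophil markers limma called 0 genes at an adjusted p under 0.05. At an unadjusted p under 0.05 in limma 4 were higher and 2 lower, beside 33% and 4.91% of all tested genes. Without control replicate 2, 4 of the 6 macrophage markers and 1 neutrophil marker were called higher, beside 17.9% of all tested genes. With sample weights 4 macrophage markers and 1 each of the stellate cell, lymphocyte and neutrophil markers were called higher, beside 37.4%. Those weights also gave 1 stellate cell marker lower, beside 5.43%. Scaling without the 20 most abundant genes gave 1 macrophage marker higher, beside 16%. A single macrophage marker was called lower with median-ratio or upper-quartile scaling, quantile normalization, a pseudocount of 0.1, no robust moderation, or without control replicate 3. Of all genes tested in those fits 1.04% to 5.55% were called lower. Without robust moderation, with a replicate block or without dKO replicate 2, 1 stellate cell marker was called higher, beside 13.7% to 17.6%. The block also gave 1 neutrophil marker lower, beside 1.83%. The part of these cells in the values of Ghr, Bcl6 and Lifr was not tested.

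**Figure D5:**
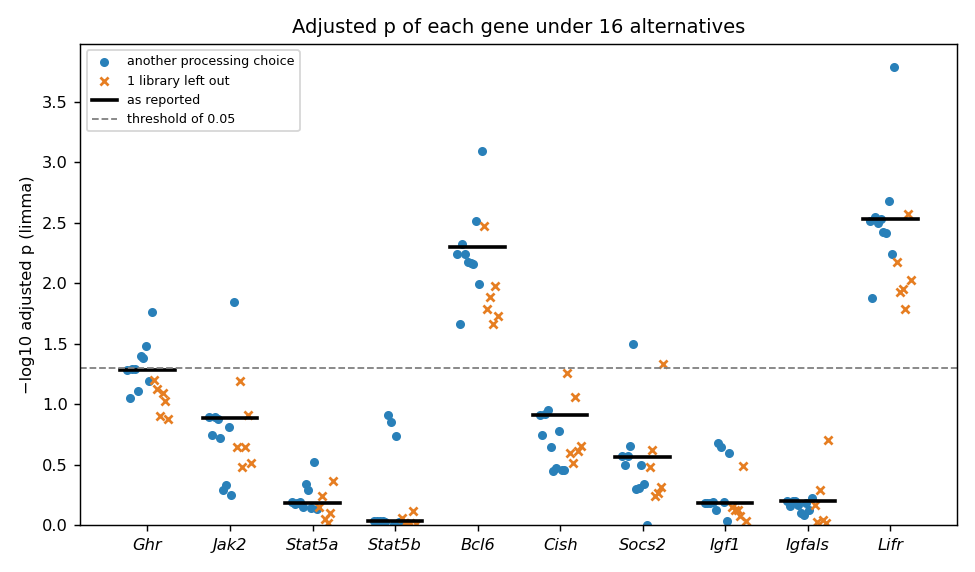
Adjusted p from limma, as −log10, for each of the 10 genes as reported (black bars), under 10 other processing choices (blue dots) and with 1 library left out (orange crosses), with the threshold of 0.05 as a dashed line. Every point of Bcl6 and Lifr lies past the threshold, 4 dots of Ghr do, and of the other genes only Jak2 (1 point) and Socs2 (2 points) have any past it.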

How the data were processed

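Polyadenylated liver RNA was sequenced by the submitters in 6 libraries, 3 dKO and 3 control, and each deposited file holds 1 library. The authors' deposited values are read as RPKM: the file headers name no unit, and 73.2% to 80.4% of 214 to 438 low values per library lay within 0.15 of a whole read at the best-fitting depth. That spacing was chosen on the same values, so the unit is inferred. Per the submitters' processing notes the genome build was mm9; the aligner, counter and annotation are not given in the sources used here. RefSeq promoter windows (GRCm38.p6) were matched by symbol and share no coordinates with the files.

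Genes averaging 1 RPKM or more were kept, values taken as log2(RPKM + 1), and limma 3.58.1 (R 4.3.3) run with trend and robust moderation, dKO minus control, without a block. The fit was tested on simulated data. Members, gene lists and tests were chosen with earlier results of these data known. Named genes were all members, up to 4 called genes with the smallest adjusted p per list, 13 fixed genes and the 5 genes most like the member with the smallest p; others are marked in the text. Alternatives were pseudocounts, filters, scalings, moderation, sample weights, thresholds, a replicate block and each library left out. Figures used matplotlib 3.10.9 in Python 3.11.15.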

Additional observations from a re-analysis of the deposited data

How the results depend on the processing

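Changes of named genes and counts of calls were recomputed under 16 other fits, and counts also under 2 other thresholds. Sums, shares, the order of levels, likeness and overlap of groups were not. Bcl6 and Lifr were called lower in each fit and at both thresholds, and the number of the 10 genes called lower stayed at 2 or 3. The number called higher was 1 with the replicate block (Socs2) and with sample weights (Jak2), and 0 to 1 when single libraries were left out. Over all genes 1965 were called higher and 240 lower. The number higher was 873 with median-ratio scaling, 899 with upper-quartile scaling, 727 with quantile normalization, 4133 with sample weights, 490 at an adjusted p under 0.01, and 763 to 1992 when single libraries were left out. The number lower was 614, 561, 554, 601 and 49 under the same settings in that order, 145 with no filter, and 90 to 241 when single libraries were left out; the lowest counts came without control replicate 1. The cause was not tested. Log2 changes that reversed were those of Stat5a (-0.15 with median-ratio scaling, -0.13 with upper-quartile scaling, -0.20 with quantile normalization, -0.046 with sample weights), Stat5b (-0.26, -0.24, -0.21 and -0.0063 in that order, and -0.012 to 0.053 when single libraries were left out, negative without dKO replicate 3 or control replicate 1) and Igfals (-0.12, -0.10 and, with sample weights, -0.13). Those of Stk4 (-0.11 with median-ratio scaling, -0.10 with upper-quartile scaling, -0.16 with quantile normalization), Cux2 (-0.090 to 0.79 when single libraries were left out, negative without dKO replicate 3 or control replicate 2) and Saa1 (0.24 with sample weights) reversed too, and none of the 6 genes was called.

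Deviations of same-numbered libraries from their group means had r of -0.08, -0.10 and -0.01. With 3 libraries a group these values cannot exclude a pairing, and the labels state none. With the replicate block 1513 genes were called higher and 202 lower, and Socs2 had a limma adjusted p of 0.0319. Of 928 values for 58 named genes, 715 kept their direction and side of the threshold, 179 lost a call, 15 gained one and 19 changed sign. With 3 libraries a group, the interval printed beside each member shows how loosely its change was estimated at the deposited scaling.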
